A study of Mus musculus with 11 samples.

Results

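HNF4A peaks of wild-type (WT) mouse villus epithelium were singled out where CDX2 had been called in only 1 of 2 WT CDX2 libraries. Of 22376 WT HNF4A peaks, 2940 (13.1%) were overlapped by at least 1 bp by a CDX2 peak of either library and touched no region in which peaks of both libraries overlapped. They are called single-library peaks here. They were chosen by the overlap of deposited WT HNF4A and CDX2 peaks, so WT scores, widths and overlaps are given as description only. The CDX2 peak came from library 1 at 2708 of them and from library 2 at 232, and at 0 of them did separate peaks of both libraries meet the HNF4A peak. Another 760 HNF4A peaks lay at a region called in both libraries, and 18676 had no CDX2 peak in either. The question was whether single-library peaks behave in the knockouts like peaks with CDX2 or like peaks without it.

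The data were chromatin immunoprecipitation and sequencing (ChIP-seq) lists from jejunal villi of mice on a mixed 129xC57BL6 background. The groups were HNF4A in Cdx2 KO and in WT, CDX2 in Hnf4a KO and in WT, and H3K4me2 in Cdx2 KO, in Hnf4a KO, in 2 double knockouts and in WT. CDX2 in WT had 2 libraries and every other group had 1, made from pooled ChIP DNA. The labels of both double knockouts disagree on which gene besides Cdx2 was deleted, so those libraries are named by their titles, Cdx2-Cdx1 and Cdx2-Hnf4a. How the genes were deleted, the age of the mice and the cells in which a gene was lost were details not given in the sources used here. Tissue markers were not checked, since the lists are of binding and carry no gene names.

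HNF4A is a nuclear receptor that binds DNA as a homodimer and, in enterocytes, is known for its role at genes of lipid handling and the brush border. CDX2 is a homeodomain factor that sets and maintains intestinal identity. H3K4me2, dimethylation of lysine 4 of histone H3, marks nucleosomes at promoters and enhancers, where marked nucleosomes typically sit on both sides of the DNA that factors occupy.

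The CDX2 peaks at single-library peaks had lower scores than those called in both libraries, which is a property of the choice and not a result. In library 1 the CDX2 score, the deposited value per peak, had a median of 77.35 (50.04 to 661.2) at single-library peaks and 134.3 at both-library peaks. In library 2 the medians were 59.5 (50.07 to 174.2) at single-library peaks and 77.3 at both-library peaks. The WT HNF4A score had a median of 119.2 at single-library peaks, 129.8 at both-library peaks and 76.3 at peaks without CDX2, with 81.1 over all HNF4A peaks. Library 1 had the longer list and the wider peaks, with 12121 peaks of median width 570 bp against 7441 of 255 bp in library 2. Its CDX2 peaks at single-library peaks were wider still, with a median of 703 bp.

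Single-library peaks were not 2940 separate observations of CDX2. They lay on 2737 CDX2 peaks, of which 205 overlapped 2 or more of them and none overlapped more than 4. Of the 2940, 150 lay within 5 kb of a region called in both libraries, which was not counted for other HNF4A peaks. Centres of the HNF4A and CDX2 peaks were a median of 112.5 bp apart, 119.5 bp for library 1 and 64.8 bp for library 2. At the edge of the rule, the smallest overlap was 2 bp. It was seen at 3 peaks (mouse build mm9 throughout), at chr13:34829835-34830217 (HNF4A score 234.2), at chr17:32673098-32673460 (165.85) and at chr1:127559678-127559942 (58.5), which were not called again in Cdx2 KO. Just outside, a peak at chr19:59445622-59446234 abutted a CDX2 peak, with a gap of 0 bp. It scored 184.3 in Cdx2 KO and 305.4 in WT. A second peak with a gap of 0 bp, at chr7:130488118-130488283, scored 57.1 in Cdx2 KO and 66.1 in WT. The next, at chr11:98765981-98766200, had a gap of 2 bp and scored 58.2 in WT, and it was not called again. Most peaks were not called again, 1881 of 2940 single-library peaks and 15636 of all 22376 HNF4A peaks. So few sites show where the rule cuts and no difference between its sides.

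In Cdx2 KO, HNF4A was called again at fewer single-library peaks than peaks without CDX2 of like score, and at more than both-library peaks of like score. HNF4A was called again, meaning that a Cdx2 KO peak overlapped by 1 bp or more, at 1059 of the 2940 single-library peaks. That is 36.0% (95% interval 34.3 to 37.8), against 30.1% of all WT HNF4A peaks. The share was 33.3% (29.9 to 36.8) at both-library peaks and 29.1% (28.4 to 29.7) at peaks without CDX2. The Cdx2 KO list was shorter throughout, with 9676 HNF4A peaks against 22376 in WT. These unmatched shares mix classes of unequal strength. The share called again was highest in the highest bin of WT score in every class, and single-library peaks scored higher than peaks without CDX2. When each other class was weighted to the single-library peaks over 10 bins of WT score, both-library peaks gave 30.4% and peaks without CDX2 gave 42.7%. The single-library share minus the weighted share was thus 5.61 percentage points for both-library peaks (2.47 to 8.75) and −6.67 points for peaks without CDX2 (−8.29 to −5.04). With peaks without CDX2 weighted to the both-library scores instead, both-library peaks differed from them by −12.7 points (−15.5 to −9.82). The interval of the difference from both-library peaks included 0 when only CDX2 peaks scoring 70 or more were used (4.02 points, −0.284 to 8.33) and without score matching (2.73 points, −1.04 to 6.505). All intervals cover counting error only. Each HNF4A condition had 1 library, so no p-value between conditions was computed, and fewer cells with HNF4A bound cannot be told apart from weaker binding in each cell.

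The difference from peaks without CDX2 varied with the WT score. It was widest in the 8th of the 10 bins and narrower in the highest bin than in bins 6 to 9. In the 3 lowest score bins, up to a score of 62.7, between 8.88% and 10.1% of single-library peaks were called again, against 6.99% to 8.96% of peaks without CDX2. In the 8th bin, from 126.1 to 174.7, the shares were 36.2% (31.4 to 41.1) of 401 single-library peaks, 19.4% (11.9 to 28.9) of 93 both-library peaks and 49.0% (46.6 to 51.4) of 1743 peaks without CDX2. In the 9th bin they were 54.5% (49.8 to 59.0), 47.2% (38.1 to 56.4) and 66.1% (63.7 to 68.4). In the highest bin they were 80.5% (76.8 to 83.8), 77.6% (70.6 to 83.7) and 86.6% (84.8 to 88.2). Among peaks of that bin that were called again, the Cdx2 KO score had a median of 177.7 at 424 single-library peaks, 164.8 at 132 both-library peaks and 184.9 at 1334 peaks without CDX2. Their WT medians were 456.1, 475.9 and 431.9, in the same order of classes. Single-library peaks were below peaks without CDX2 in 7 of 10 bins and above both-library peaks in 8 of 10, where bins 1 and 7 were the exceptions. Many of the bin intervals of both-library peaks overlapped those of single-library peaks. By chromosome, with 5 score bins, the share of single-library peaks was below that of peaks without CDX2 on 18 of 20 chromosomes. The exceptions were chromosome 11 (0.175 points above, 214 peaks) and chromosome X (0.436 points above, 15 peaks).

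**Figure D1:**
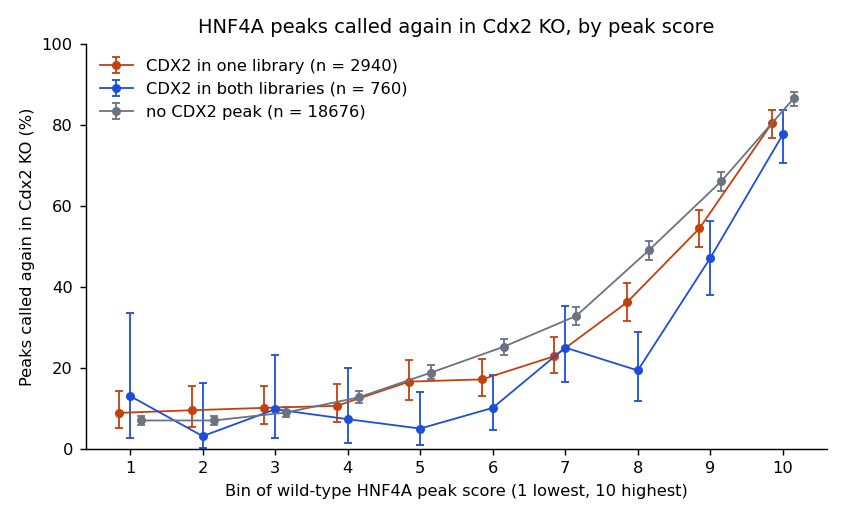
Share of WT HNF4A peaks called again in Cdx2 KO (y axis, percent) in 10 bins of WT peak score (x axis), for single-library peaks, both-library peaks and peaks without CDX2, with exact 95% binomial intervals. From the 4th bin upward the single-library points lie under those of peaks without CDX2, for example 36.2% against 49.0% in the 8th bin.

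Either library alone gave the same direction against peaks without CDX2. The 2708 single-library peaks of library 1 were called again at 36.4% (34.6 to 38.2), a difference of −6.55 points from the weighted share of peaks without CDX2 (−8.24 to −4.86). The 232 of library 2 were called again at 31.9% (25.9 to 38.3), a difference of −7.999 points (−13.1 to −2.87). Relative to both-library peaks, library 1 was 5.83 points above (2.65 to 9.01) and library 2 was 3.02 points above, with an interval that includes 0 (−2.75 to 8.78).

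Within library 1, the difference from peaks without CDX2 was larger where the CDX2 score was higher. Single-library peaks were split into 4 groups of 676 to 678 by the score of their CDX2 peak, which left their HNF4A medians between 115.1 and 122.6. At CDX2 scores of 50.04 to 60.55, 37.5% were called again, a difference of −4.49 points from peaks without CDX2 (−7.55 to −1.42). At 60.58 to 77.32 the difference was −4.55 points, and at 77.4 to 105.2 it was −6.55 points. At 105.2 to 661.2, 32.4% were called again, a difference of −10.6 points from peaks without CDX2 (−13.8 to −7.40) and of 2.05 points from both-library peaks, whose interval includes 0 (−2.13 to 6.23). The intervals of the lowest and the highest group overlap slightly. Peaks were also split by the distance between centres. Where the centres lay within 100 bp, the difference from peaks without CDX2 was −8.53 points (−10.8 to −6.22, 1340 peaks), and at 100 to 250 bp it was −6.31 points. Beyond 250 bp it was −3.08 points, with an interval that includes 0 (−6.35 to 0.190, 594 peaks). The HNF4A score moved with distance, with medians of 126.3 within 100 bp, 118.9 at 100 to 250 bp and 105.3 beyond, and its part in these differences beyond the matching was not tested. WT H3K4me2 nucleosomes within 1 kb rose with distance, with 3.68, 4.24 and 5.16 per peak in the same order. They were not matched here, and their part was not tested either.

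**Figure D2:**
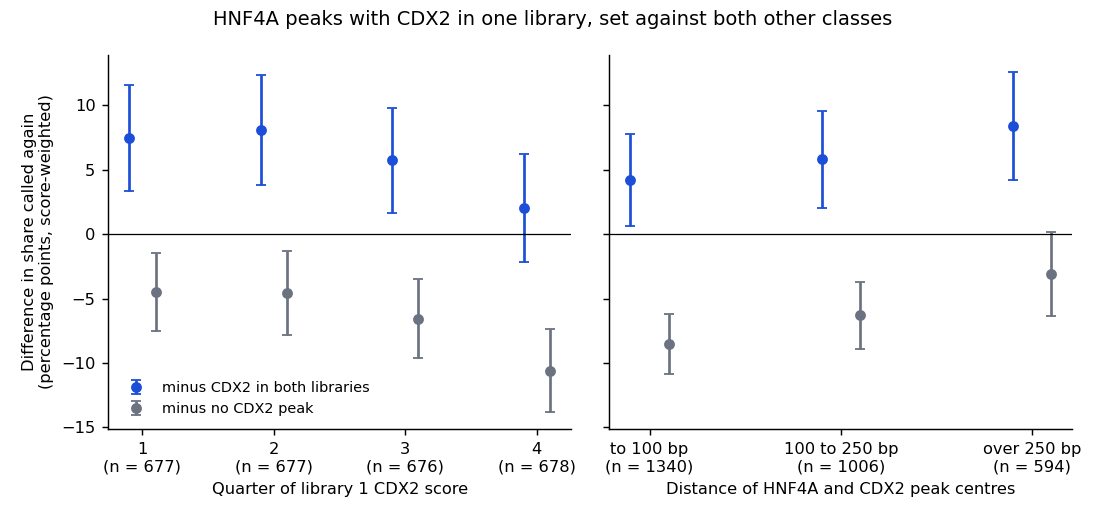
Difference in the share called again in Cdx2 KO (y axis, percentage points, 95% intervals of counting error) between single-library peaks and both-library peaks or peaks without CDX2, by CDX2 score of library 1 from lowest (1) to highest (4) on the left and by distance between the HNF4A and CDX2 centres on the right. The points against peaks without CDX2 run from −4.49 to −10.6 with rising CDX2 score.

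The strongest single-library peaks kept HNF4A. The highest-scoring lay at chr6:39192864-39194576, with an HNF4A score of 913 in Cdx2 KO and 2479.9 in WT. Its library 1 CDX2 peak scored 114.3 in WT, and a CDX2 peak was also called there in Hnf4a KO (50.7). Next came a peak at chr5:143686129-143686604, with 1058 in Cdx2 KO and 2421 in WT and a CDX2 score of 54.0. A peak at chr5:65101358-65102136 had 1002 in Cdx2 KO and 1911 in WT. At chr14:121870569-121871281, HNF4A had 1102 in Cdx2 KO and 1787 in WT, and CDX2 had 108.0 in Hnf4a KO and 162.1 in WT. The 5th, at chr7:26400321-26401067, had 1081 in Cdx2 KO and 1737 in WT and is a library 2 peak (CDX2 50.96). At all 5 the score was lower in Cdx2 KO, and H3K4me2 nucleosomes within 1 kb changed by 1 at most. These 5 were picked for high WT scores, a choice that favours lower scores in a second list. Lower scores were also general: among peaks called again, the median ratio of Cdx2 KO to WT score was 0.515 at single-library peaks. It was 0.644 over all HNF4A peaks.

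Among single-library peaks not called again, the highest WT HNF4A score was 809.3, at chr9:106341282-106341653, where CDX2 scored 51.1. Then followed 771.8 at chr7:143649349-143650066 (CDX2 140.03), 721.3 at chr3:137231559-137232224 (CDX2 115.9), 676 at chr4:53198889-53199488 (CDX2 161.1) and 634.6 at chr7:52578115-52578984 (CDX2 224.8). H3K4me2 nucleosomes were fewer at 4 of these 5, against 50.2% of all single-library peaks and 34.5% of all WT HNF4A peaks. At chr9:106341282-106341653 the fall was of 1 nucleosome. It was 0 there with nucleosomes as deposited and with those scoring 100 or more. The nucleosome numbers in Cdx2 KO were 4, 4, 1, 1 and 0, against 5, 7, 6, 1 and 3 in WT. Over the whole class, peaks called again had a median WT HNF4A score of 232.5 (1059 peaks), and those not called again had 90.1 (1881 peaks). Their library 1 CDX2 scores had medians of 74.99 where HNF4A was called again and 78.6 where it was not. Of the 1881 not called again, 168 had a Cdx2 KO peak centre within 1 kb, a count that was not made for other HNF4A peaks.

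A high CDX2 score in 1 library did not always come with a strong HNF4A peak. The highest in library 1, 661.2, belonged to a CDX2 peak whose centre was 2084 bp from an HNF4A peak at chr9:3025316-3025693 (HNF4A 77.2), with 0 H3K4me2 nucleosomes in all 5 lists. No deposited peaks were left out by region, and whether the calls at this site are artefacts was not tested. The next, 615.6, was at chr19:5841976-5842416 (HNF4A 55.8), with 7 nucleosomes in Cdx2 KO and 7 in WT. The one after, 583, was at chr17:36326496-36327569, where HNF4A scored 79.2 in Cdx2 KO and 625.6 in WT. In library 2 the highest were 174.2 at chr3:82161643-82161984, 161.3 at chr11:111288127-111288380 and 150.8 at chr13:3782847-3783288. HNF4A scored 51.2, 74.1 and 269.0 there in WT and was not called again at any of the 3. In the WT score bins of these 3, only 8.88%, 16.6% and 54.5% of single-library peaks were called again. Over all HNF4A peaks the share was 30.1%.

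CDX2 itself was rarely called again at single-library peaks in Hnf4a KO, a list of 5768 peaks that played no part in the choice. The choice did require that CDX2 was not called at the same place in the other WT library. A low share in a further list, or one below both-library peaks, cannot be told apart from an effect of that choice. A part of Hnf4a loss in it was not tested. A CDX2 peak of the Hnf4a KO library overlapped 137 of 2940, or 4.66% (3.93 to 5.49), against 2.31% of all WT HNF4A peaks. It overlapped 275 of 760 both-library peaks, or 36.2% (32.8 to 39.7), and 105 of 18676 peaks without CDX2, or 0.562% (0.460 to 0.680). The share was 4.65% for library 1 and 4.74% (2.39 to 8.33) for library 2. It was higher at a higher library 1 CDX2 score, with 1.62%, 2.81%, 4.73% and 9.44% (7.35 to 11.9) from the lowest to the highest score group. Weighted to the same library 1 scores in 10 bins, both-library peaks gave 23.6%, a difference of −19.0 points for single-library peaks (−23.4 to −14.5). Counting only Hnf4a KO peaks with a score of 70 or more, the shares were 0.952% at single-library peaks, 22.5% at both-library peaks and 0.118% at peaks without CDX2, with 0.988% over all WT HNF4A peaks. At that score the single-library share was thus no higher than that of all HNF4A peaks.

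At like CDX2 scores, that share did not differ beyond counting error between CDX2 peaks with and without HNF4A. Of the library 1 CDX2 peaks outside both-library regions, 5.14% (4.30 to 6.07) of 2512 with HNF4A and 3.65% (3.25 to 4.08) of 8025 without it were called again in Hnf4a KO. Those with HNF4A had higher CDX2 scores, with medians of 75.96 with HNF4A and 66.02 without. With scores weighted alike over 5 bins the difference was 0.491 points (−0.524 to 1.51). For library 2 the shares were 4.78% of 230 with HNF4A and 4.11% of 5615 without, and the weighted difference was −0.322 points (−3.33 to 2.68).

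Most HNF4A peaks lay in marked chromatin, and single-library peaks more often than peaks without CDX2 of like score. At least 1 H3K4me2 nucleosome with a score of 52 or more was centred within 1 kb in WT at 2765 of 2940, or 94.0% (93.1 to 94.9), against 76.8% of all WT HNF4A peaks. The share was 95.5% (93.8 to 96.9) at both-library peaks and 73.3% (72.7 to 74.0) at peaks without CDX2. Weighted to the single-library HNF4A scores, peaks without CDX2 reached 81.1%, a difference of 12.9 points (11.9 to 13.9). Both-library peaks reached 95.2%, a difference of −1.12 points whose interval includes 0 (−3.03 to 0.783). Library 1 and library 2 differed in this, with 95.1% (94.2 to 95.8) and 82.3% (76.8 to 87.0) marked.

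In Cdx2 KO fewer marked nucleosomes were called at single-library peaks, with a ratio close to that of both-library peaks and lower than that of peaks without CDX2. Nucleosomes per peak averaged 3.51 in Cdx2 KO and 4.17 in WT, a ratio of 0.803 (0.782 to 0.825) once scaled by the length of each list (256794 nucleosomes in Cdx2 KO and 245431 in WT). The ratio was 0.778 (0.738 to 0.821) at both-library peaks and 0.886 (0.875 to 0.896) at peaks without CDX2, with 0.867 over all HNF4A peaks. Fewer nucleosomes than in WT were called at 1475 single-library peaks (50.2%, against 34.5% of all WT HNF4A peaks), and more at 507 (17.2%, against 19.2%). These counts were not scaled by list length. Peaks with 0 nucleosomes in WT cannot fall, and they were 175 of 2940 single-library peaks and 5190 of all 22376 HNF4A peaks. The median change was −1 at single-library peaks and 0 over all HNF4A peaks. To compare peaks that started alike, both other classes were weighted to the single-library WT nucleosome numbers. Peaks without CDX2 then gave 3.83 per peak in Cdx2 KO, a difference of −0.320 for single-library peaks (−0.377 to −0.264). Both-library peaks gave 3.42, and the difference of 0.0870 had an interval that includes 0 (−0.0348 to 0.209). With only nucleosomes scoring 100 or more, that difference was 0.155 (0.0475 to 0.263), which excludes 0. At peaks with 4 nucleosomes in WT, the mean in Cdx2 KO was 3.28 at single-library peaks, 3.29 at both-library peaks and 3.64 at peaks without CDX2. The intervals of the ratios cover counting error only and take each nucleosome as independent. Those of the differences at equal WT numbers reflect the spread over peaks. Neither kind covers the spread over animals.

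**Figure D3:**
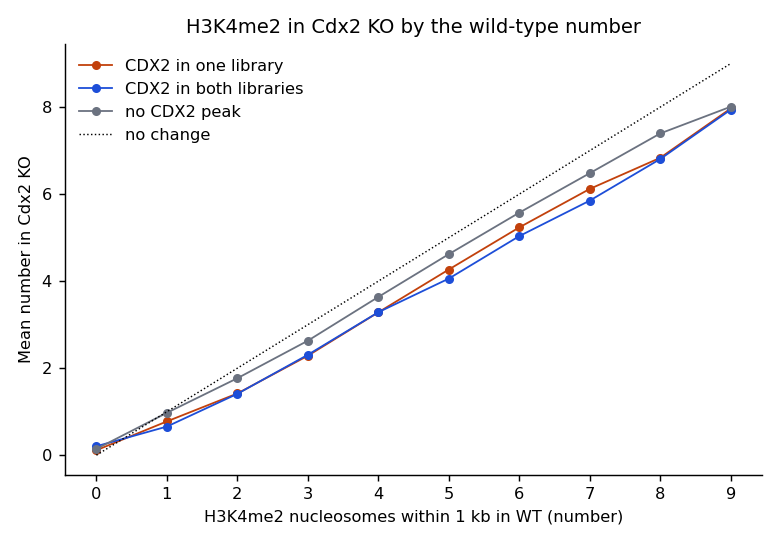
Mean number of H3K4me2 nucleosomes within 1 kb of the HNF4A centre in Cdx2 KO (y axis) for peaks with a given number in WT (x axis), by class, with a dotted line for no change. Between 1 and 9 nucleosomes the single-library points lie below those of peaks without CDX2, for example 3.28 against 3.64 at 4.

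Peaks left with no marked nucleosome were counted next. Of the 2765 single-library peaks marked in WT, 296 (10.7%, 9.58 to 11.9) had no nucleosome in Cdx2 KO, against 9.67% of all marked HNF4A peaks. At equal WT numbers, peaks without CDX2 gave 6.60%, a difference of 4.11 points (3.01 to 5.20). Both-library peaks gave 12.4%, a difference of −1.74 points whose interval includes 0 (−4.07 to 0.594). In library 1 the difference from peaks without CDX2 at equal WT numbers again went with the CDX2 score, at −0.190 nucleosomes per peak (−0.294 to −0.0859) in the lowest score group and −0.489 (−0.606 to −0.373) in the highest. Library 2 single-library peaks differed from peaks without CDX2 by −0.283 (−0.417 to −0.149).

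The lower numbers lay more than 100 bp from the HNF4A centre, not over it. That range begins inside many peaks, since single-library peaks had a median width of 364 bp. Within 100 bp of the HNF4A centre, 1276 nucleosomes were called in Cdx2 KO and 1244 in WT at single-library peaks, a scaled ratio of 0.980 (0.906 to 1.06). From 100 to 400 bp the numbers were 4250 in Cdx2 KO and 5236 in WT (0.776, 0.745 to 0.808), and from 400 to 1000 bp they were 4776 in Cdx2 KO and 5781 in WT (0.790, 0.760 to 0.821). Both-library peaks had ratios of 1.07 (0.911 to 1.25), 0.738 and 0.754 in these zones. Peaks without CDX2 had 1.03 (0.992 to 1.06), 0.836 (0.821 to 0.852) and 0.898 (0.882 to 0.914). The central 100 bp thus held 12.4% of the single-library nucleosomes within 1 kb in Cdx2 KO and 10.1% of those in WT.

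**Figure D4:**
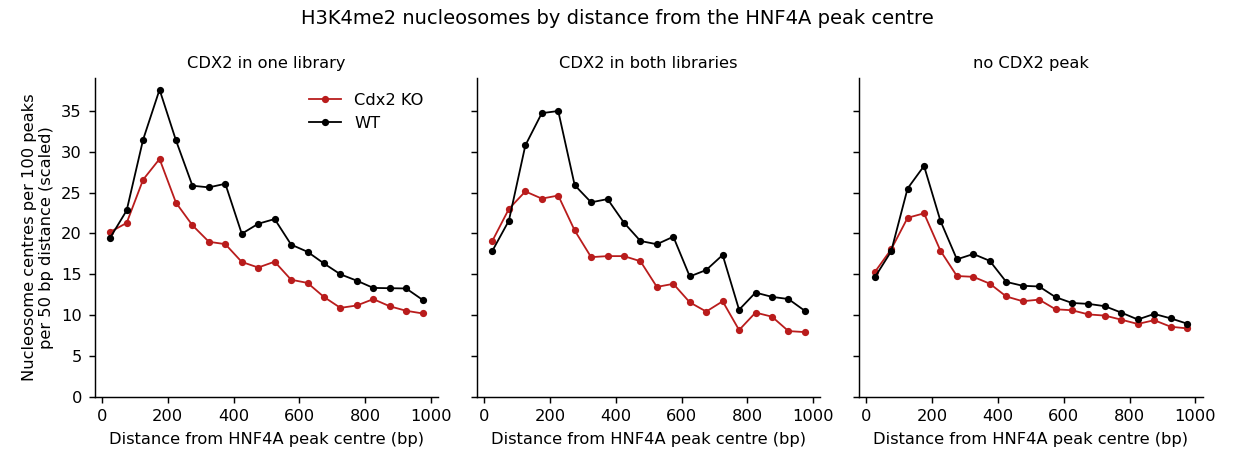
H3K4me2 nucleosome centres per 100 peaks, in 50 bp steps of distance to either side of the HNF4A centre (x axis, bp) and scaled to the length of the WT list (y axis), in Cdx2 KO and WT for each class. At single-library peaks the number between 150 and 200 bp is 29.1 in Cdx2 KO and 37.6 in WT, while the innermost points nearly coincide.

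H3K4me2 and HNF4A were followed together at the same peaks. Where HNF4A was called again, single-library peaks had a ratio of 0.876 (0.842 to 0.912), and where it was not, 0.750 (0.724 to 0.777). Called again and not, the ratios were 0.901 (0.830 to 0.978) and 0.697 (0.648 to 0.748) at both-library peaks, and 0.924 (0.907 to 0.941) and 0.859 (0.846 to 0.873) at peaks without CDX2. These ratios were not matched between called again and not. Single-library peaks called again had 4.87 WT nucleosomes per peak and a median WT HNF4A score of 232.5. Those not called again had 3.78 and 90.1, and the part of these differences was not tested. Among peaks not called again, and at equal WT numbers, single-library peaks differed by −0.389 nucleosomes per peak from peaks without CDX2 (−0.462 to −0.317) and by 0.169 from both-library peaks (0.0199 to 0.317; 3 single-library peaks had no both-library counterpart). Among those called again, they differed by −0.183 from peaks without CDX2 (−0.271 to −0.0960) and by −0.108 from both-library peaks, whose interval includes 0 (−0.304 to 0.0874).

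Single sites showed the range. Among the single-library peaks with at least the median WT number of 4 nucleosomes, the greatest decreases in Cdx2 KO were found at chr18:84846338-84846751 and at chr16:65583805-65584102, each with 1 nucleosome in Cdx2 KO and 8 in WT. Hnf4a KO had 4 and 8 there. A peak at chr1:75017121-75017309, with a CDX2 score of 244.2, had 0 in Cdx2 KO, 7 in Hnf4a KO and 7 in WT. HNF4A was not called again at these 3. It was called again at both remaining sites of the 5 with the greatest decreases, at chr3:122574294-122575047 (1 nucleosome in Cdx2 KO, 7 in WT) and at chr1:72340557-72340889 (0 in Cdx2 KO, 6 in WT). Among the greatest increases, chr6:134363826-134364710 had 8 in Cdx2 KO and 4 in WT. Neighbouring peaks at chr16:18628775-18629132 and chr16:18629345-18629803 share 1 CDX2 peak, and their 1 kb windows overlap; each had 10 in Cdx2 KO and 6 in WT. The remaining sites had 7 in Cdx2 KO and 4 in WT, at chr15:82624559-82625216, and 8 in Cdx2 KO and 5 in WT at chr1:193664347-193665469.

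In Hnf4a KO the mark at single-library peaks was near the WT level. Nucleosomes per peak averaged 4.31 in Hnf4a KO and 4.17 in WT, a scaled ratio of 1.01 (0.987 to 1.04). Unmatched, the ratio was 1.06 (1.01 to 1.11) at both-library peaks and 0.996 (0.984 to 1.01) at peaks without CDX2. At equal WT numbers, single-library peaks differed by 0.169 from peaks without CDX2 (0.121 to 0.217) and by −0.145 from both-library peaks (−0.239 to −0.0505). Peaks without CDX2 averaged only 2.95 in WT, and matching on counts of 1 WT library leaves regression to the mean between such classes. Its part in these differences was not tested. With only nucleosomes scoring 100 or more, the difference from both-library peaks was −0.0262, with an interval that includes 0 (−0.114 to 0.0620). All knockout ratios use the same WT library, so they are not independent of each other.

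Both double knockouts had fewer nucleosomes than WT at single-library peaks, as at HNF4A peaks of every class. The library titled Cdx2-Cdx1 averaged 3.68 per peak, a scaled ratio of 0.769 (0.749 to 0.789), and the library titled Cdx2-Hnf4a averaged 3.05, a ratio of 0.651 (0.634 to 0.669), against 4.17 in WT. Over all HNF4A peaks the ratios were 0.810 in the library titled Cdx2-Cdx1 and 0.711 in that titled Cdx2-Hnf4a, so most of the difference from WT was shared by HNF4A peaks in general. At equal WT numbers in the library titled Cdx2-Cdx1, single-library peaks differed by −0.156 from peaks without CDX2 (−0.216 to −0.0961). In a 500 bp window that difference was −0.0200, with an interval that includes 0 (−0.0625 to 0.0224). Their difference from both-library peaks was −0.0115, also with an interval that includes 0 (−0.136 to 0.113). In the library titled Cdx2-Hnf4a, they differed by −0.330 from peaks without CDX2 (−0.403 to −0.258) and by 0.188 from both-library peaks (0.0391 to 0.336). In a 500 bp window the difference from both-library peaks was 0.100, with an interval that includes 0 (−0.00228 to 0.203).

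**Figure D5:**
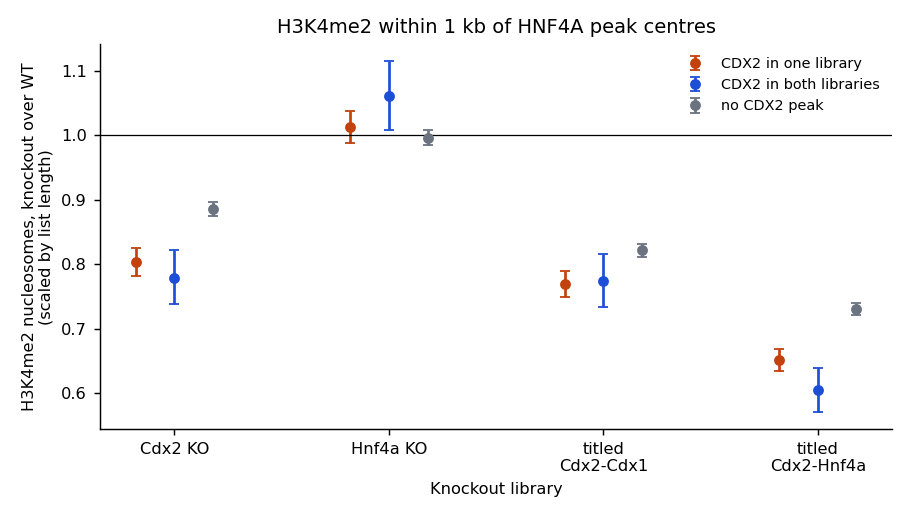
H3K4me2 nucleosomes within 1 kb of HNF4A centres, knockout over WT and scaled by list length (y axis; the axis does not start at 0), in 4 knockout libraries (x axis) for each class, with exact 95% binomial intervals and no matching. In Cdx2 KO single-library peaks have 0.803, both-library peaks 0.778 and peaks without CDX2 0.886.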

How the data were processed

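ChIP-seq lists of CDX2, HNF4A and H3K4me2 were used. The input sample was not analysed here. Per the file headers and peak names, the authors deposited one list per library: factor peaks named by MACS, each with a score whose definition is not given, and called nucleosomes with a score of 10 times the −log10 of a p-value. The build is mm9 (per the submitters' processing notes), and positions count from 1. Depth is unknown, because read numbers were, like the aligner and the caller's version and control, not given in the sources used here. Whether the CDX2 libraries came from separate animals is not stated.

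Overlap was 1 bp or more. Comparison classes were weighted to the single-library peaks over 10 quantile bins of WT HNF4A score, or over WT nucleosome numbers with 10 or more pooled. Nucleosomes scoring 52 or more were counted, since the Hnf4a KO list reached down to 1.7 and the others to 50.1 to 51.3, and ratios were scaled by list length. Shares have exact Clopper-Pearson 95% intervals. Weighted differences have intervals from the variance within bins (0.5 added to each count for shares). Calculations used Python 3.11.15 and scipy 1.17.1 and were tested on simulated data. Sites were named by rule: the 5 highest-scoring called again and not, the 3 highest CDX2 scores per library, the 5 largest falls and rises of nucleosomes, and 3 peaks on each side of the overlap limit. Peaks and lists were chosen with earlier results of these data known, and the distance zones, score groups and distance groups after the deposited lists were seen. Sequences and nearby genes were not used here.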

Additional observations from a re-analysis of the deposited data

How the results depend on the processing

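The difference of single-library peaks from peaks without CDX2 in the share called again in Cdx2 KO (−6.67 points) depended on matching: without it the difference turned to 6.96 points. It was −10.5 points with HNF4A lists of equal length, −10.03 at WT HNF4A scores of 100 or more, −8.67 with CDX2 scores of 70 or more and −9.25 when WT nucleosome number was matched too, a setting added after seeing the data. With 1 CDX2 library left out, all peaks with CDX2 in the other were set against the rest, which mixes the classes. Without library 1 the set held 659 both-library and 232 single-library peaks. The rest then held the single-library peaks of library 1. The difference was −11.5 points without library 1 and −7.74 points without library 2. The H3K4me2 difference in Cdx2 KO was −0.345 without library 1 and −0.336 without library 2. Of the 18 alternatives for the share called again against peaks without CDX2, 17 kept the sign, with these mixed sets among them. The difference from both-library peaks kept its sign in 17 of 17, from 2.73 to 7.47 points, with an interval that excluded 0 in 14. It included 0 with CDX2 scores of 70 or more (4.02 points), without score matching (2.73) and with library 2 alone (3.02). Matched on CDX2 score as well (added), it was 5.24 points (0.492 to 9.98). At a nucleosome score of 100 or more, the H3K4me2 difference from peaks without CDX2 was −0.262 in Cdx2 KO, and that from both-library peaks was −0.0262 in Hnf4a KO. In a 500 bp window, which holds fewer nucleosomes, the differences from peaks without CDX2 were −0.132 in Cdx2 KO, 0.0835 in Hnf4a KO, −0.0200 in the library titled Cdx2-Cdx1 and −0.102 in that titled Cdx2-Hnf4a. With nucleosomes as deposited the Hnf4a KO value was 0.238. CDX2 in Hnf4a KO was called at 0.952% with a score of 70 or more. Of 96 values at named sites, 14 moved and 1 turned. At a nucleosome score of 100 or more, the change in Cdx2 KO was −2 at chr1:72340557-72340889, −1 at chr3:137231559-137232224, −5 at chr7:143649349-143650066 and 1 at both chr1:193664347-193665469 and chr15:82624559-82625216. The one that turned was chr5:65101358-65102136, with −1 at that score. The other 9 that moved did so in a 500 bp window. No paired analysis was possible because only CDX2 in WT has more than 1 library. Unknown depth limits every share of peaks called again, since a peak that was not called may still be bound.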
